A study of Homo sapiens with 6 samples.

Results

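The nuclear genes that encode the subunits of the mitochondrial respiratory chain and ATP synthase are described here after knockdown of MED12 in 22Rv1, a cell line from a human prostate carcinoma. The genes were picked by symbol from the 17901 genes of the log2 CPM table (CPM, read counts scaled to library size), through the NDUF, SDH, UQCR, COX and ATP5 naming patterns of subunits. The patterns themselves used no measured value, but earlier results of these data were known when the set was chosen. They number 76 of the 17901: 38 of complex I, 4 of complex II, 8 of complex III, 11 of complex IV and 15 of complex V. All 76 passed the filter on low counts, since the table holds only genes that did, and the count table before the filter held 62703 genes. MED12 is a subunit of Mediator, the coactivator that bridges transcription factors and RNA polymerase II. The study asked what its loss does in cells that are resistant to enzalutamide from the outset.

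Both groups were 22Rv1 cells transfected with RNAiMAX and 25 pmol of a pool of small interfering RNAs (siRNAs), 24 hours after seeding. The siCtrl group (n = 3) received a non-targeting pool and the siMED12 group (n = 3) a pool against MED12. The medium was replaced after 6 hours and RNA was taken on day 3. Knockdown was by siRNA in a bulk culture, and in such RNA a smaller number of cells expressing a gene and less RNA per cell cannot be told apart. The methods of the study describe its experiments in general as biologically replicated, and the labels do not say whether these libraries came from separate cultures, so p-values measure the spread between these libraries.

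The respiratory chain sits in the inner mitochondrial membrane. Complex I takes electrons from NADH and complex II from succinate, complex III passes them on to cytochrome c, complex IV hands them to oxygen, and ATP synthase (complex V) uses the proton gradient so formed to make ATP. Most subunits are nuclear genes whose proteins are imported, while a small set of core membrane subunits of complexes I, III, IV and V is encoded by mitochondrial DNA, so that the complexes are assembled from products of both genomes.

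Promoter sequences of the subunits are shown for genes whose levels are described below. RefSeq promoters (GRCh38.p14, 250 bases before to 50 after the start) were matched by symbol for 63 of the 76 subunits, which have 76 listed starts. Capitals mark matches, on either strand, to the ETS motif CCGGAAG, the NRF1 core GCGCATGC, the SP1 motif GGGCGG and the E-box CACGTG. The SDHB stretch (chr1:17054033-17054282, minus strand), the COX8A stretch (chr11:63974370-63974619, plus strand) and the ATP5ME stretch (chr4:674331-674526, minus strand) lie before the start. The ATP5ME stretch leaves out the last 54 bases before the listed start, which belong to another transcript of the gene.
SDHB: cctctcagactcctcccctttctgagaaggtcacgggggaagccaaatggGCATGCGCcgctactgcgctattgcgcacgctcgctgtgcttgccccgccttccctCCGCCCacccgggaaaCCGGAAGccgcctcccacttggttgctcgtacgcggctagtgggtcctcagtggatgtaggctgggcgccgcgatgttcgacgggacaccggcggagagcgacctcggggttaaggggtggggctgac
COX8A: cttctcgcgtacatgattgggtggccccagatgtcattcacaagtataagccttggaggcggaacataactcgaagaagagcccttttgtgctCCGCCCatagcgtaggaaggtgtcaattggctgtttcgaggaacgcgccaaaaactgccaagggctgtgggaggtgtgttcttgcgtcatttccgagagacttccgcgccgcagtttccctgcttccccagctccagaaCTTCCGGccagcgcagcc
ATP5ME: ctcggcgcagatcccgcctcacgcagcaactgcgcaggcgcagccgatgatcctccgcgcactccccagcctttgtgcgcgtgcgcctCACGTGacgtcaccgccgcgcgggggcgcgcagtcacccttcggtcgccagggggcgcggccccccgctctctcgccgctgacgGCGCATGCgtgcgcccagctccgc
In SDHB the NRF1 core began 200 bases, the SP1 motif 144 bases and the ETS motif 128 bases before the start. In COX8A the SP1 motif began 157 bases and the ETS motif 18 bases before it, and in ATP5ME the E-box began 162 bases and the NRF1 core 78 bases before it. A match is a description of the letters and not a binding site.

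The E-box CACGTG, a hexamer recognised by basic helix-loop-helix factors such as MYC and its partner MAX, was found in the promoters of 7 subunits. Of these, 5 were among the subunits that were lower in siMED12 in the fit with the replicate block described below, and their sites are shown with 10 bases to either side, the hexamer in capitals. The ATP5MC1 site begins 5 bases after the start (chr17:48892781-48892806, plus strand). The others lie before the listed start: 162 bases in ATP5ME (chr4:674423-674448, minus strand), 223 in ATP5PB (chr1:111449231-111449256, plus strand), 187 in NDUFS7 (chr19:1383710-1383735, plus strand) and 187 in UQCR11 (chr19:1605634-1605659, minus strand). The ATP5PB and NDUFS7 sites nevertheless lie inside the genes as annotated, which begin at positions 111448864 and 1383527.
ATP5MC1: aggtccaggaCACGTGggtgggggaa
ATP5ME: gcgtgcgcctCACGTGacgtcaccgc
ATP5PB: cagcaaacccCACGTGgtgcacctct
NDUFS7: ccgcggccccCACGTGcgcactccga
UQCR11: gccgccagacCACGTGgccagaaagc
The other two were NDUFA7 and NDUFA11, which did not pass the test. By gene, the E-box was held by 5 of the 19 lower subunits with a promoter entry and by 2 of the other 44. Of the genes tested that had an entry, 12.3% held it. By start, it was in 9.21% of subunit promoters, 9.17% of the promoters of genes tested and 7.26% of all promoters. The NRF1 core was in 19.7% of subunit starts and 4.64% of the starts of genes tested (3.05% of all), the ETS motif in 27.6% and 16.0% (10.3%), and the YY1 motif AAGATGG in 25.0% and 6.73% (5.84%). The SP1 motif was in 61.8% and 64.8% (45.0%). The other motifs, by gene, were also held by a larger share of the 19 lower subunits than of the other 44. These were the NRF1 core in 7 against 7, the ETS motif in 9 against 11, the YY1 motif in 6 against 12 and the SP1 motif in 14 against 26. These motif shares were not tested.

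The targeted gene was checked first. MED12 stood at 67.8, 77.7 and 72.6 CPM in siCtrl replicates 1 to 3 against 23.9, 15.0 and 30.1 in siMED12, a log2 fold change of -1.66 (SE 0.23, edgeR adjusted p = 0.0315). Libraries held 16136699 to 17012788 counts. Luminal prostate markers were present, among them KRT8 at 591 to 914 CPM (here by library size). PTPRC, PECAM1 and COL1A2 reached at most 0.182, DCN at most 0.823, KRT5 and KRT14 were at 0 in all 6 libraries, and COL1A1 was at 15.1 to 26.8. Same-numbered libraries of siCtrl and siMED12 deviated together from their group means, so a second fit, blocked on that number, is given beside the fit on treatment alone.

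The subunits were abundant transcripts. Per length, in TPM (CPM divided by length and rescaled to the same total, from TMM-scaled CPM and the length of the canonical transcript), the median subunit stood at 212 TPM in siCtrl against 12.3 TPM for all genes tested. Medians were 160 TPM in complex I, 128 in complex II, 185 in complex III, 510 in complex IV and 315 in complex V. The highest was ATP5F1B, the catalytic beta subunit of ATP synthase, at 2333 ± 253 TPM (SD, n = 3), followed by ATP5MF, a small membrane subunit of the same enzyme, at 1231 ± 104 and COX4I1, the largest nuclear-encoded subunit of complex IV, at 919 ± 30.2. The next in order, ATP5MC2 (798 ± 82.4), COX7C (789 ± 37.8) and ATP5ME (788 ± 64.8), did not differ beyond their spread. The lowest were NDUFV2 (5.83 ± 1.88), NDUFA7 (7.13 ± 1.78), NDUFA9 (8.28 ± 0.655), NDUFB5 (16.6 ± 1.06) and SDHA (18.9 ± 1.76). NDUFV2, NDUFA7 and SDHA share more than 50% of their 50-base stretches with other genes, so their low levels are uncertain. NDUFA9 and NDUFB5 had means of 34.1 and 35.9 CPM. Their low TPM rests on canonical transcripts of 8356 and 4199 bases, against a subunit median of 784.

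Subunit transcripts lay slightly lower in siMED12, with the lowest median in ATP synthase, but by amounts that the fit on treatment alone did not separate from the spread between libraries. The median log2 fold change over the 76 subunits was -0.08, against 0.02 over all genes. Below 0 were 55 of the 76 subunits, against 8524 of the 17901 genes tested. With library size as the only scaling it was 47 of the subunits and 7501 of all genes. In that fit, edgeR called 0 subunits lower and 0 higher at an adjusted p below 0.05, against 0.413% of all genes lower and 0.151% higher, and the adjusted p values of the subunits ran from 0.0931 to 0.991. At an unadjusted p below 0.05, 6 subunits were lower (ATP5MC1, ATP5F1D, ATP5F1B, ATP5ME, SDHB and COX8A) and 0 higher, against 7.93% and 7.65% of all genes. limma-trend also called 0 lower and 0 higher (all genes, 0.436% and 0.151%). The DESeq2 Wald test called 2 lower, ATP5MC1 (adjusted p = 0.0129) and ATP5F1D (adjusted p = 0.0274), and 0 higher (all genes with an adjusted p, 3.12% and 2.06%).

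With the replicate block, 23 of the 76 subunits (30.3%) were lower and 0 were higher, against 16.2% of all genes lower and 17.1% higher. Genes with a mean of at least 10 CPM were called more often, 23.2% of them lower and 22.9% higher, and of the 74 subunits at that level 31.1% were lower. The count of lower subunits moved to 13 without replicate 3, 18 without replicate 1 and 25 without replicate 2, against 14.4%, 14.2% and 14.5% of all genes lower and 13.3%, 11.4% and 12% higher. With library size as the only scaling, where the median of all genes stood at 0.06 in place of 0.02, 13 were lower and 2 (ATP5MC2 and COX7A2) higher, against 13.5% of all genes lower and 21.3% higher, and 19% and 29% of genes with a mean of at least 10 CPM. Without any model, 19 subunits had all siMED12 libraries below all siCtrl libraries and 0 the reverse, against 10.9% and 11.2% of all genes. Within the 3 replicate numbers, 41 subunits were lower in siMED12 each time and 6 higher each time, against 27% and 30.6% of all genes.

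By complex, the block called 9 of 15 subunits lower in complex V (60%), 3 of 8 in complex III (37.5%) and 3 of 11 in complex IV (27.3%). In complex II it called 1 of 4 (25%) and in complex I 7 of 38 (18.4%). The same fit called 16.2% of all genes lower and 23.2% of genes with a mean of at least 10 CPM. The share in complex I lay between these, and those in complexes II and IV were near the latter. In the blocked fit with library size only, 5 were lower in complex V, 1 in III, 2 in IV, 1 in II and 4 in I. Of genes with a mean of at least 10 CPM, 19% were then lower. With a correction for GC content and length the counts were 11, 4, 3, 2 and 7, against 27.5%. Both fits also called 1 subunit higher in complex V and 1 in complex IV. Median log2 fold changes with the block were -0.13 in complex V, -0.09 in complex III, -0.09 in complex II, -0.05 in complex I and -0.01 in complex IV. Under the alternatives run here the complex IV median was the only one to turn sign, to 0.03 in the blocked fit with library size only and to as much as 0.06, without siCtrl replicate 3, in the fit on treatment alone. Within replicate numbers, the complex II median was above 0 in number 2. The differences between complexes were not tested.

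**Figure D1:**
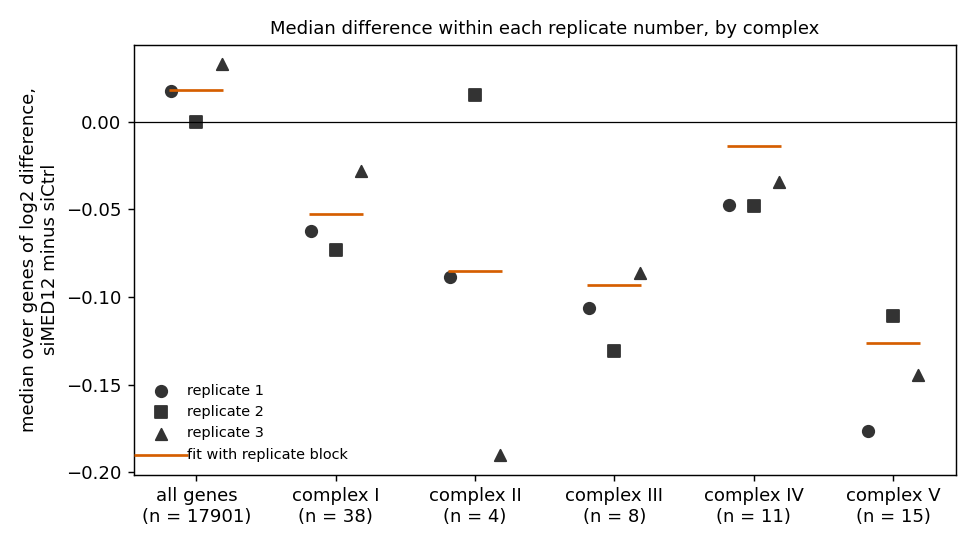
Median over the genes of each complex, and over all genes tested, of the log2 CPM difference siMED12 minus siCtrl within replicate 1 (circle), 2 (square) and 3 (triangle), with the median of the fitted values with the replicate block as an orange line. Complex V lies between -0.18 and -0.11 in the 3 replicate numbers, and all genes lie between 0.00 and 0.03.

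**Figure D2:**
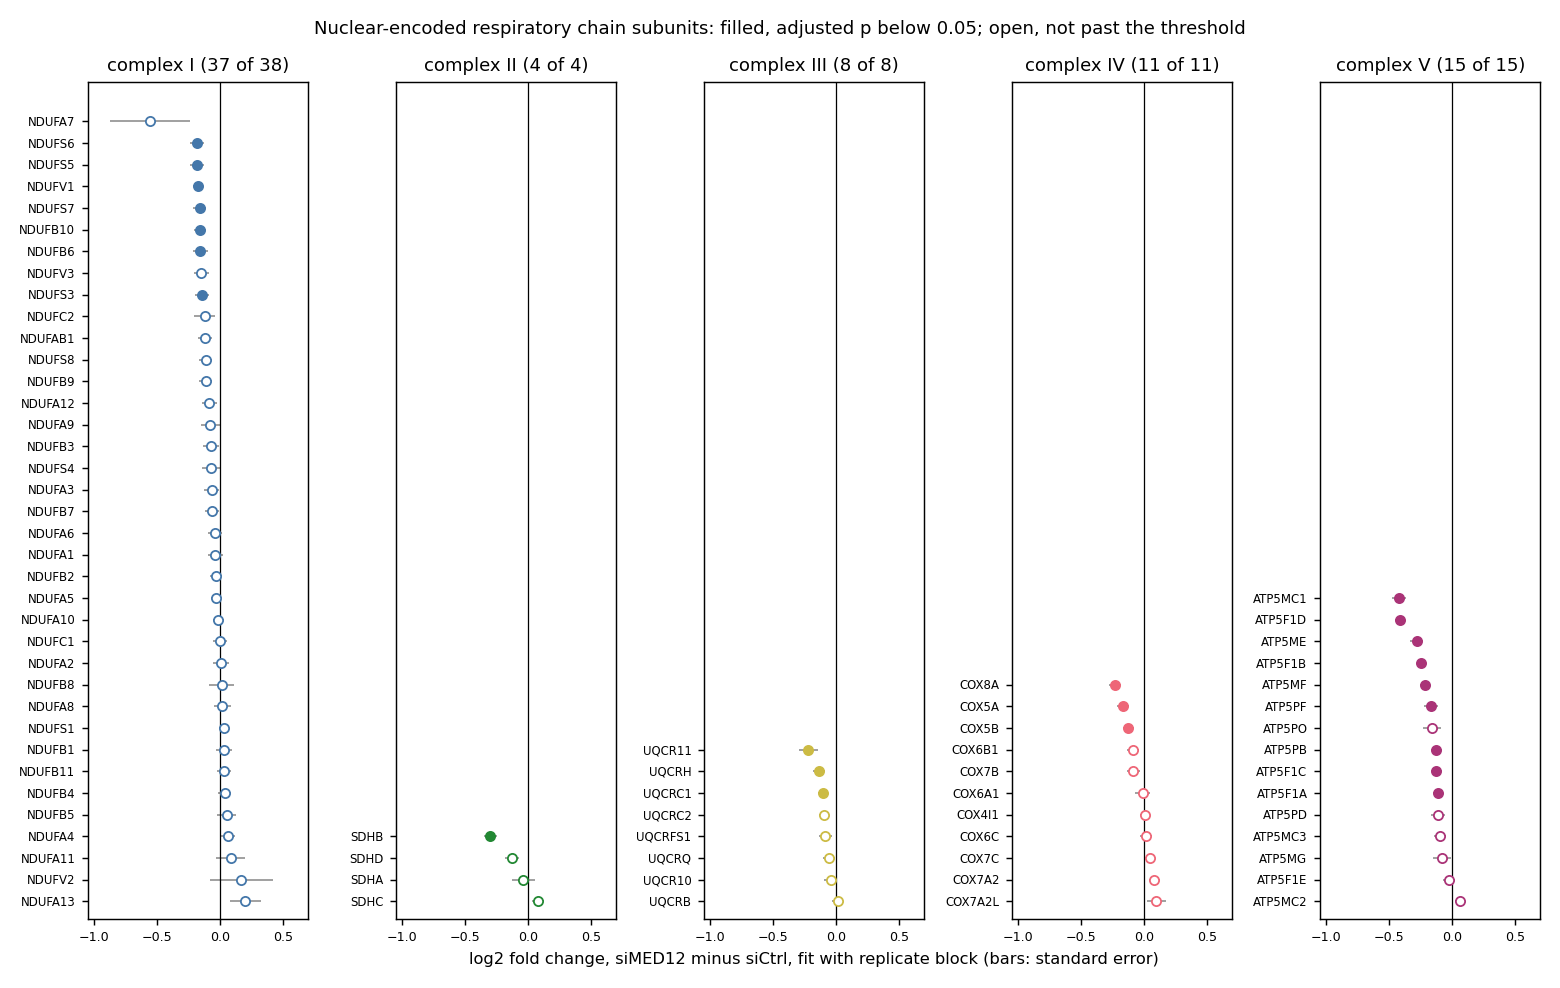
Log2 fold change with the replicate block of 75 of the 76 subunits (horizontal axis, bars are standard errors), by complex, ordered from the lowest at the top. Filled points mark the 23 subunits with an adjusted p below 0.05, all of them left of 0, and 9 of these are in complex V.

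In ATP synthase, the F1 head is the catalytic part that projects into the matrix, and a central stalk turns inside it. Of its 5 genes, 4 were lower with the block, 2 when library size was the only scaling and 5 with the GC and length correction. ATP5F1D, the delta subunit of the central stalk (chr19:1241746-1244825, plus strand), stood at 230, 254 and 218 CPM in siCtrl against 172, 193 and 161 in siMED12. Every siMED12 library was below every siCtrl library, and the difference was nearly the same in each replicate number, -25.1%, -24.0% and -26.2%. On the log2 scale this was -0.42 (SE 0.04, edgeR adjusted p = 2.6e-10 with the block and 0.111 without). ATP5F1B (chr12:56638175-56645984, minus strand) stood at 2008, 2274 and 1946 CPM in siCtrl against 1694, 1879 and 1664 in siMED12. These groups did not overlap either, giving a log2 difference of -0.25 (SE 0.03, adjusted p = 1.24e-07 with the block and 0.285 without). ATP5F1A, the alpha subunit that alternates with beta in the head, had a smaller difference: 761, 836 and 727 CPM in siCtrl against 707, 781 and 658 in siMED12, a log2 fold change of -0.12 (SE 0.04, adjusted p = 0.0105 with the block, 0.0727 with library size only). ATP5F1C, the gamma subunit of the stalk, had -0.13 (adjusted p = 0.0259), and ATP5F1E, the epsilon subunit, had -0.03 (adjusted p = 0.702).

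The c ring is the rotor in the membrane, and its subunit is made from 3 genes whose mature proteins are identical and differ only in the cleaved targeting peptide. The 3 genes had unlike values. ATP5MC1 (chr17:48892765-48895871, plus strand) stood at 106, 109 and 118 CPM in siCtrl against 89.9, 80.5 and 78.7 in siMED12, with no overlap and a log2 fold change of -0.42 (SE 0.06, adjusted p = 9.56e-08 with the block and 0.0931 without). ATP5MC2, the most abundant of the 3, stood at 245, 280 and 241 CPM in siCtrl against 253, 283 and 262 in siMED12. Its groups overlapped and its log2 fold change was 0.06 (SE 0.04, adjusted p = 0.27 with the block), while it passed as higher with library size only (0.10, adjusted p = 0.0326) and with the GC and length correction (0.11, adjusted p = 0.0261). ATP5MC3 had 134, 144 and 121 CPM against 127, 134 and 113 CPM, a log2 fold change of -0.10 (adjusted p = 0.113). As a share of the counts of the 3 genes, ATP5MC1 held 21.9% (95% Wilson interval 21.0 to 22.8), 20.5% (19.7 to 21.4) and 24.6% (23.6 to 25.5) in siCtrl, and 19.1% (18.3 to 19.98), 16.2% (15.4 to 16.97) and 17.4% (16.5 to 18.3) in siMED12. These intervals, like those below, cover counting error only. This share does not depend on the scaling between libraries, and it was lower in siMED12 within each replicate number, with no overlap between the groups. Their summed level was 486, 534 and 480.0 CPM in siCtrl against 471, 497 and 453 in siMED12.

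**Figure D3:**
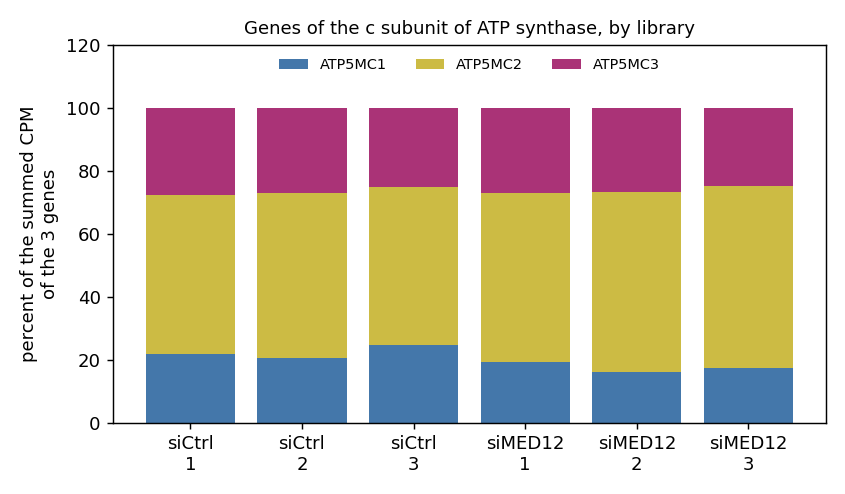
Percent of the summed CPM of ATP5MC1, ATP5MC2 and ATP5MC3 held by each gene, in each library (stacked bars that sum to 100). ATP5MC1 takes 20.5 to 24.6% in the siCtrl bars and 16.2 to 19.1% in the siMED12 bars.

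The remaining ATP synthase genes belong to the membrane part and to the peripheral stalk, which holds the head still against the rotor. ATP5ME, the small e subunit (chr4:672436-674330, minus strand), stood at 122, 118 and 122 CPM in siCtrl against 99.97, 89.5 and 110 in siMED12, a log2 fold change of -0.28 (SE 0.05, adjusted p = 3.3e-05 with the block and 0.223 without). The lowest siCtrl library was above the highest siMED12 library, although 571 exonic bases of ATP5ME overlap MYL5 on the opposite strand, whose reads cannot be told apart if strand was not used in counting. ATP5MF, the f subunit, had -0.22 (SE 0.04, adjusted p = 0.000104), with overlapping groups because replicate 3 was high in both. ATP5MG, the g subunit, had -0.08 (adjusted p = 0.395). Of the peripheral stalk, ATP5PF (-0.17, adjusted p = 0.0149) and ATP5PB (-0.13, adjusted p = 0.0202) were lower with the block, while ATP5PO (-0.16, adjusted p = 0.0811) and ATP5PD (-0.11, adjusted p = 0.0964) did not pass the threshold. Summed over its 15 genes, complex V stood at 4653, 5085 and 4578 CPM in siCtrl against 4094, 4411 and 4039 in siMED12, without overlap, and ATP5F1B was the largest term of each sum.

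**Figure D4:**
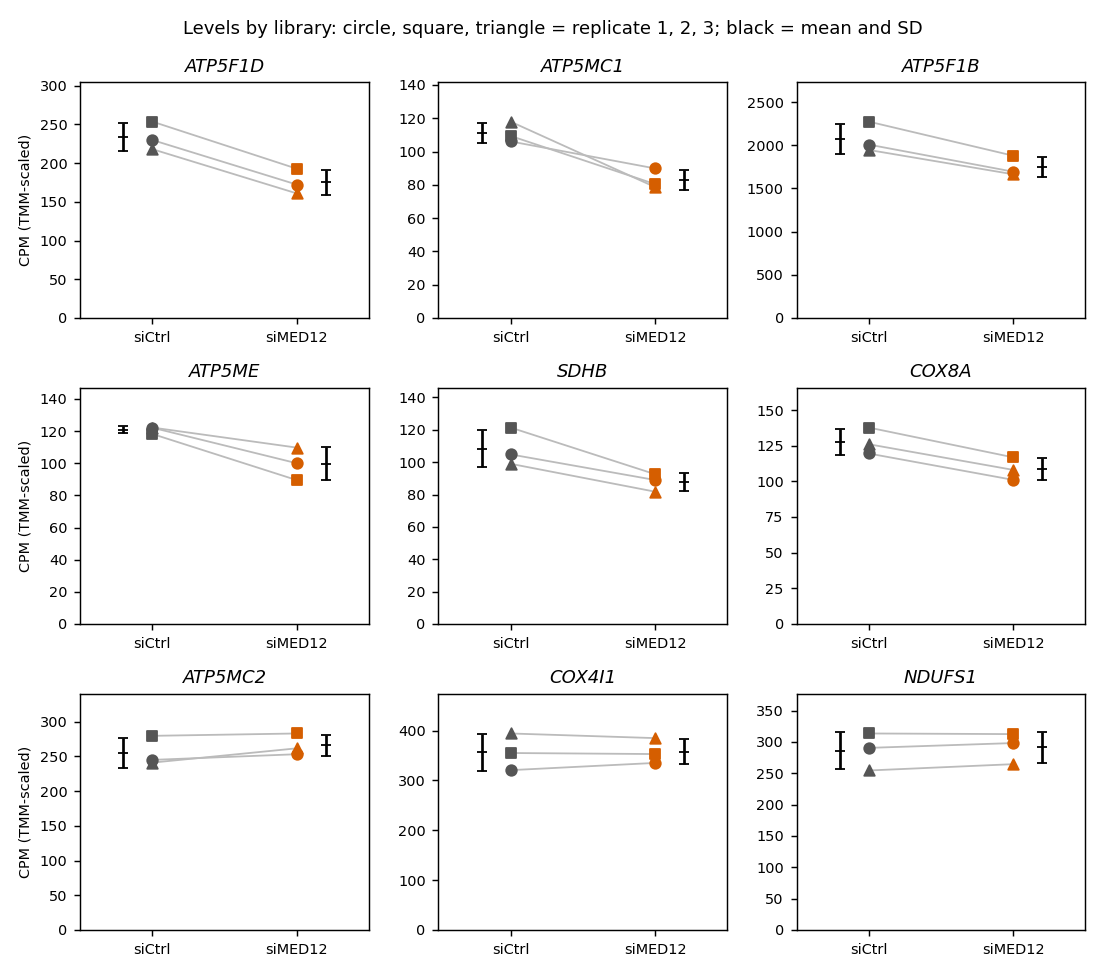
TMM-scaled CPM (vertical axes from 0) of 9 subunits in each library, with grey lines joining libraries of the same replicate number and black marks for mean and SD (n = 3). The 6 genes of the upper rows are lower in every siMED12 library, as in ATP5F1D with 161 to 193 CPM against 218 to 254, while ATP5MC2, COX4I1 and NDUFS1 overlap.

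In complex II, which also catalyses a step of the citric acid cycle, SDHB was lower with the block. It encodes the iron-sulphur subunit (chr1:17018664-17054032, minus strand) and stood at 105, 121 and 99.0 CPM in siCtrl against 89.0, 92.6 and 81.8 in siMED12. The groups did not overlap, giving a log2 difference of -0.30 (SE 0.05, adjusted p = 1.11e-05 with the block and 0.219 without). The other members of the complex did not pass. SDHC and SDHD, which anchor the enzyme in the membrane, had 0.08 (adjusted p = 0.256) and -0.13 (adjusted p = 0.0694). SDHA, the flavin subunit, stood at 25.3, 23.5 and 28.9 CPM against 25.7, 27.5 and 22.2 CPM, a log2 fold change of -0.04 (adjusted p = 0.789). Its pseudogenes SDHAP1 and SDHAP4 together took more counts than SDHA itself, so the value for SDHA is uncertain.

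In complex III, UQCR11 (-0.22, SE 0.07, adjusted p = 0.0156 with the block), UQCRH (-0.14, SE 0.05, adjusted p = 0.0198) and UQCRC1 (-0.10, SE 0.04, adjusted p = 0.0372) were lower. UQCR11 is a small accessory subunit and stood at 40.9, 38.0 and 43.95 CPM in siCtrl against 37.6, 30.9 and 37.0 in siMED12. UQCRH, the hinge protein, had 129, 144 and 136 CPM against 117, 129 and 127 CPM, and here the highest siMED12 library (128.9 CPM) lay just below the lowest siCtrl library (129.3 CPM). UQCRC1 and UQCRC2 are the large core proteins. UQCRC2 had -0.10 (adjusted p = 0.0649), so the pair was alike in size and lay on either side of the threshold. When GC content and length were corrected for, UQCRC2 passed (adjusted p = 0.0135) and UQCRC1 did not (adjusted p = 0.248). UQCRFS1, the Rieske iron-sulphur protein, had -0.09 (adjusted p = 0.188), and UQCRB, UQCRQ and UQCR10 lay between -0.06 and 0.01.

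In complex IV, 3 structural subunits were lower with the block. COX8A (chr11:63974620-63976543, plus strand) stood at 120, 138 and 126 CPM in siCtrl against 101, 117 and 108 in siMED12. The groups did not overlap and the differences within replicate numbers were close, -15.5%, -15.2% and -14.2%, with a log2 fold change of -0.23 (SE 0.05, adjusted p = 0.000157 with the block and 0.301 without). COX8A shares 28.5% of its 50-base stretches with other genes. COX5A had -0.17 (SE 0.05, adjusted p = 0.00445) and COX5B had -0.13 (SE 0.04, adjusted p = 0.0203), the latter with adjusted p = 0.109 when library size was the only scaling. The other 8 did not pass, and 5 of them had values above 0. COX4I1 stood at 320.5, 355 and 394 CPM in siCtrl against 335, 353 and 385 in siMED12, a log2 fold change of 0.01 (SE 0.04). COX7A2 had 0.08 (adjusted p = 0.182), and it was above 0 in each replicate number.

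In complex I, 7 of 38 subunits (18.4%) were lower with the block, against 23.2% of genes with a mean of at least 10 CPM. Of the 14 genes with symbols that begin with NDUFA, NDUFAB1 among them, 0 were lower. With the GC and length correction 2 of them, NDUFA5 and NDUFA9, passed as lower. The core subunits carry the flavin and the iron-sulphur clusters that lead electrons inward. NDUFV1, which binds NADH and the flavin, stood at 200.3, 222 and 251 CPM in siCtrl against 170, 195 and 232 in siMED12. Its groups overlapped across replicate numbers but it was lower within each, with a log2 fold change of -0.18 (SE 0.04, adjusted p = 0.00109 with the block and 0.611 without). NDUFS7 (-0.16, adjusted p = 0.012, with 3836 exonic bases that overlap genes on the opposite strand) and NDUFS3 (-0.14, adjusted p = 0.04) were lower too, but neither passed with the GC and length correction (adjusted p = 0.352 and 0.117) or with library size only (0.0552 and 0.143), while NDUFS8 had -0.12 (adjusted p = 0.0735). NDUFS1, the largest iron-sulphur subunit, stood at 291, 314 and 254.5 CPM in siCtrl against 298, 313 and 265 in siMED12. Its groups overlapped, and its log2 fold change was 0.03 (SE 0.04, adjusted p = 0.622 with the block). With the GC and length correction it was -0.11 and passed as lower (adjusted p = 0.0182).

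Among the accessory subunits of complex I, NDUFB10 (-0.16, adjusted p = 0.00656), NDUFB6 (-0.16, adjusted p = 0.0398), NDUFS5 (-0.18, adjusted p = 0.00652) and NDUFS6 (-0.19, adjusted p = 0.00711) were lower with the block. NDUFS5 stood at 91.9, 103 and 93.9 CPM in siCtrl against 87.6, 89.8 and 77.3 in siMED12, and NDUFB10 at 146, 155 and 153 CPM against 129, 133 and 146 CPM, both without overlap. The median was -0.03 in the 14 genes with symbols that begin with NDUFA, -0.03 in the 11 NDUFB genes, -0.14 in the 6 other accessory genes and -0.12 in the 7 core genes. With the GC and length correction the core median was -0.06 and that of the 6 other accessory genes -0.14. NDUFA4, which carries an NDUF name but is now assigned to complex IV, stood at 65.1, 70.2 and 90.2 CPM against 71.9, 70.8 and 92.1 CPM. The widest value in the complex, -0.56 for NDUFA7, came from 1.11 to 2.50 CPM and did not pass (adjusted p = 0.186).

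The share of all counts taken by the 76 subunits was 1.11% (95% Wilson interval 1.108 to 1.118), 1.13% (1.12 to 1.13) and 1.10% (1.090 to 1.100) in siCtrl and 1.06% (1.051 to 1.061), 1.08% (1.076 to 1.086) and 1.04% (1.031 to 1.041) in siMED12. All siMED12 shares were below all siCtrl shares. The 13 mitochondrially encoded subunits took 3.64% (3.63 to 3.65), 5.00% (4.98 to 5.01) and 8.15% (8.14 to 8.17) in siCtrl and 4.01% (3.996 to 4.015), 4.88% (4.87 to 4.88) and 8.47% (8.46 to 8.48) in siMED12. These mitochondrially encoded shares differed more between replicate numbers than between the groups. Within replicate numbers they were higher in siMED12 in 1 and 3 and lower in 2. Each nuclear-encoded count stood against 3.27, 4.44 and 7.44 mitochondrially encoded counts in siCtrl and 3.79, 4.51 and 8.18 in siMED12. This ratio was higher in siMED12 within each replicate number, which was not tested. With the block, MT-ND5 was higher (0.17, adjusted p = 0.000177) and MT-ND6 lower (-0.20, adjusted p = 0.00224), and the other 11 did not pass, with a median of -0.02 over the 13. MT-ND6 is transcribed from the strand opposite to the others, and in the fit on treatment alone both values turned sign without siCtrl replicate 1.

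**Figure D5:**
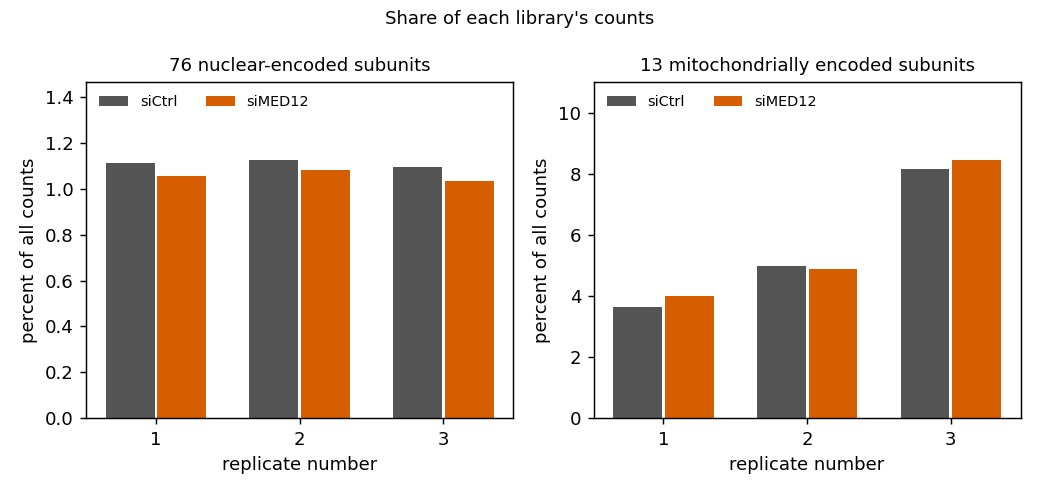
Percent of each library's counts taken by the 76 nuclear-encoded subunits (left) and by the 13 mitochondrially encoded subunits (right), by replicate number, siCtrl grey and siMED12 orange. On the left each orange bar is below the grey bar beside it, and on the right the bars of replicate 3 (8.15 and 8.47%) are the tallest and those of replicate 1 (3.64 and 4.01%) the shortest.

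Nuclear-encoded subunits ranged less between replicate numbers than the median gene, but the comparison was not matched for level. The median subunit had a mean of 95.4 CPM and the median gene 18.3 CPM. Taking the mean log2 CPM of both groups at each number, the median range was 0.18 for the subunits and 0.37 for all genes, and 4 subunits (NDUFA13, COX7B, NDUFV2 and NDUFA7) ranged over more than 1.5-fold, against 29.2% of all genes. At a cut of 1.2-fold it was 19 subunits, against 65.9% of all genes. Both cuts were chosen after the values were seen. COX7B had the widest range of the subunits above 20 CPM: 70.8, 73.0 and 132 CPM in siCtrl against 70.8, 66.6 and 122 in siMED12. UQCRQ (108, 118 and 156 CPM in siCtrl) and NDUFB9 (86.0, 89.2 and 122 CPM) were also highest in replicate 3. MYC, whose product is a general activator of growth genes, moved far more: 217, 51.7 and 24.3 CPM in siCtrl against 92.5, 21.3 and 13.02 in siMED12, with a blocked log2 fold change of -1.18 (adjusted p = 3.91e-17) and an adjusted p of 0.586 without the block. ATP5F1B was highest in replicate 2 of both groups, and the subunits as a set were not compared with MYC over the replicate numbers. Whether MYC had a part in the values above was not tested.

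Genes that build or feed the chain were taken from lists and read in the fit with the block, against the same 23.2% lower and 22.9% higher. Of 50 assembly factors, which insert cofactors or join subunits, 13 were lower and 2 higher. FOXRED1, a complex I assembly factor, stood at 254, 244 and 274 CPM in siCtrl against 156, 144 and 159 in siMED12 (log2 fold change -0.75, SE 0.04, adjusted p = 3.86e-17), and it also passed without the block (adjusted p = 0.0272). CMC2 (-0.51) and LYRM7 (-0.49), which act in the assembly of complexes IV and III, were lower as well. Of 18 enzymes of the citric acid cycle and pyruvate dehydrogenase, 9 were lower and 1 higher. CS, citrate synthase, stood at 583, 641 and 534 CPM in siCtrl against 483, 506 and 454 in siMED12 (-0.28, adjusted p = 1.14e-07), and DLAT (-0.34) and PDHA1 (-0.19) of pyruvate dehydrogenase were lower.

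Of 15 tested regulators of mitochondrial biogenesis, 7 were lower and 0 higher. TWNK, the helicase that unwinds mitochondrial DNA, stood at 53.4, 73.8 and 63.0 CPM in siCtrl against 36.3, 39.4 and 45.7 in siMED12 (-0.64, adjusted p = 1.72e-09). ESRRA, a nuclear receptor that activates subunit genes, had -0.40 (adjusted p = 3.3e-09) and PPRC1, a PGC-1-related coactivator, -0.32 (adjusted p = 2.53e-05). PPARGC1A was below the filter. Of 11 tested partners of the chain outside the naming patterns, 6 were lower and 2 higher: CYCS, cytochrome c, had -0.30 (adjusted p = 2.43e-08), DHODH, which passes electrons to ubiquinone during pyrimidine synthesis, -0.57 (adjusted p = 6.39e-06), and ATP5MK, a further small subunit of ATP synthase, -0.30 (adjusted p = 2.04e-05). The tissue-restricted isoforms COX4I2, COX6A2, COX6B2, COX7A1, COX7B2 and COX8C were below the filter. In the blocked fit with library size only, 12 assembly factors were lower and 3 higher. The citric acid cycle list then had 5 and 1, the regulators 6 and 0 and the partners 3 and 3, against 19% and 29% of genes with a mean of at least 10 CPM. With the GC and length correction the counts were 16 and 1, 8 and 1, 8 and 0, and 4 and 2, against 27.5% and 18.2%. Without the block, FOXRED1 was the only one of the genes named from these lists to pass in edgeR, and the DESeq2 Wald test also called CMC2 (adjusted p = 0.00458), LYRM7 (0.0192), TWNK (0.00605), ESRRA (0.0273) and DHODH (0.0171).

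Read assignment limits part of the set. Reads that match a processed copy can be lost or split, and 6 subunits had pseudogenes of their own symbol holding over 10% of their counts: NDUFV2, COX6A1, SDHA, UQCRFS1, NDUFA4 and NDUFA5. NDUFV2 stood at 1.55 to 3.54 CPM while NDUFV2P1 had 52.4 to 59.5 CPM by library size, and COX6A1 stood at 55.5 to 76.4 CPM while COX6A1P2 had 193 to 266. In 7 subunits more than 50% of the 50-base stretches also occur in other genes. Of the 56 subunits in which under 10% do, 19 were lower with the block (33.9%), and of the 48 without exonic overlap on the opposite strand, 16 were (33.3%). Subunit transcripts were short, with a median canonical length of 784 bases against 2716 for all genes tested. When the blocked fit was corrected for GC content and length, 27 subunits were lower and 2 (ATP5MC2 and COX7A2) higher, against 18.8% of all genes lower and 14.1% higher, and 27.5% and 18.2% of genes with a mean of at least 10 CPM. Of the 23 calls, 16 were kept, and NDUFB10, NDUFS3, NDUFS6, NDUFS7, UQCRC1, UQCRH and COX5B no longer passed. With library size only, 13 were kept, and NDUFB6, NDUFS3, NDUFS7, UQCRC1, UQCRH, COX5B, ATP5F1A, ATP5F1C, ATP5PB and ATP5PF no longer passed.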

How the data were processed

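RNA-seq counts were analysed for 22Rv1 cells transfected with siCtrl (n = 3) or siMED12 (n = 3), grouped by the labels. The authors captured poly(A) RNA in strand-specific libraries and aligned and counted reads with Rsubread on GRCh38. The use of strand and the handling of multiple matches were not stated. Counts were deposited as unnormalised reads per gene. The deposited log2 CPM values were recomputed from them within 4.96e-09 (edgeR filter, TMM, prior count 2).

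The quasi-likelihood F-test of edgeR 4.0.16 in R 4.3.3 was fitted on all 17901 genes, two-sided, with Benjamini-Hochberg adjustment and a threshold of 0.05. The design held treatment alone. Standard errors were derived from the fold change and F. Deviations from group means correlated at 0.532, 0.373 and 0.643 between libraries of one replicate number and at -0.460 to -0.0233 otherwise, so the numbers were taken to pair the libraries. A replicate block, DESeq2 1.42.0, limma 3.58.1, other scalings and filters, a loess correction (span 0.5) for GC content and length, and left-out libraries were alternatives. Replicates were no duplicates (chi-square per degree of freedom 10.3 to 40.7). Lengths, coordinates and 50-base stretches came from Gencode release 44, promoters from RefSeq. Procedures were tested on simulated data.

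The subunits and lists were chosen with earlier results of these data known. Named genes were a fixed set of subunits (less 1 that is not reported here, in text or figures) plus, per complex, up to 3 lower and 2 higher, and per list up to 3, with the smallest p under the block, at a mean of 10 CPM or more and an adjusted p under 0.05. Other genes were named for their role or after their values were seen.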

Additional observations from a re-analysis of the deposited data

How the results depend on the processing

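The count of subunits lower without the block (0) became 2 with the DESeq2 Wald test and 23 with the replicate block, and stayed at 0 in each leave-one-out fit. The count with the replicate block (23) became 13 with library size only, 13 with the DESeq2 Wald test, 12 at an adjusted p below 0.01 and 0 with no block, and 13 to 25 without single replicate numbers. The count of higher subunits with the block (0) became 2 with library size only and 2 with the GC and length correction. Leaving out single libraries gave a median log2 fold change of -0.108 to -0.0651 over all subunits, -0.0934 to -0.0466 in complex I, -0.199 to -0.00349 in II, -0.149 to -0.0448 in III, -0.0973 to 0.0604 in IV and -0.184 to -0.123 in V. With DESeq2 size factors it was -0.0906 over all subunits and -0.0230 in complex IV, and with TMM without mitochondrially encoded genes -0.0941 and -0.0279. With library size only it was -0.0415 over all subunits, -0.0115 in complex I, -0.0528 in III, 0.0248 in IV and -0.0849 in V. The GC and length correction gave 0.0194 in complex IV. The cause of these shifts was not tested.

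Signs turned only for genes near 0 or with wide replicate differences. In the fit on treatment alone, leaving out single libraries, which leaves the replicate numbers unbalanced, gave log2 fold changes of -2.52 to 0.136 for MYC (above 0 without siCtrl replicate 1, and -1.23, -1.28 and -0.89 within replicate numbers), -0.0517 to 0.0993 for NDUFS1, -0.133 to 0.0440 for SDHA, -0.0886 to 0.0804 for COX4I1, -0.00881 to 0.131 for ATP5MC2, -0.281 to 0.565 for MT-ND5 and -0.786 to 0.321 for MT-ND6. NDUFS1 was -0.111 with the GC and length correction (adjusted p = 0.0182), SDHA 0.00129 with library size only, and COX4I1 -0.00473 with DESeq2 size factors and -0.00882 with TMM without mitochondrially encoded genes. Of 396 values of named genes under alternatives, 315 kept their direction and call, 55 passed only under the alternative, 8 no longer passed and 18 turned sign.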
